A study of Arabidopsis thaliana with 16 samples.

Results

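The evening-phased genes of the circadian clock were followed across 16 root transcriptomes of Arabidopsis thaliana. The rule lists them by gene identifier and holds no expression value, but the set was proposed with earlier results of these data in view: TOC1, GI, ELF3, ELF4, LUX, BOA, PRR5, PRR3, FKF1 and CHE, 10 of the 33560 genes in the deposited matrix. The libraries hold messenger RNA from roots of 5-day-old Col-0 seedlings grown at 21 °C in 16 h of light and 8 h of dark, and fall into 4 genotypes with 4 libraries each. The genotypes are wild type (WT), the insertion line mctp4-1 (Salk_089046C), the insertion line mctp3-2 (GABI_285E06) and the mctp3-2/mctp4-1 double mutant (double). Libraries of each genotype are numbered 1 to 4 in the labels. The rule for these genes sets replicates 3 and 4 (matrix columns ending R6 and R7) against replicates 1 and 2 (R2 and R3). The labels do not say what a replicate number stands for or at which hour roots were taken, so time of day and any other difference between the replicate pairs cannot be told apart.

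The plant clock is a set of transcription factors that repress one another in turn through the day. CCA1 and LHY peak around dawn and bind the evening element in the promoters of evening genes, whose transcripts rise later in the day. The evening complex of ELF3, ELF4 and LUX (or its paralog BOA) then represses morning genes such as PRR9 during the night, and TOC1 represses CCA1 and LHY. Roots are known to run a clock of their own that light and shoot signals set.

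Values are FPKM (mapped fragments scaled by transcript length and library size), so levels can be set against each other between genes. FPKM summed to 887430 to 1016221 per library, the number of reads is unknown, and all 10 root markers were at 1 FPKM or more in every library, between 6.45 and 306 FPKM. MCTP4 was at 2.55 to 5.50 FPKM in the libraries labelled mctp4-1 and at 2.94 to 3.31 FPKM in those labelled double, below WT at 22.9 to 29.4 FPKM. MCTP3 was at 12.4 to 16.4 FPKM in the libraries labelled mctp3-2 and at 13.0 to 14.6 FPKM in those labelled double, above WT at 6.07 to 6.61 FPKM. The transcript of MCTP3 was thus higher and not lower where its allele is labelled, and any direction given below for mctp3-2 or double rests on these labels. Nothing in the labels says that replicates came from separate plates or harvests, so the p-values refer to differences among the 16 libraries and may reflect technical spread alone.

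Sequences upstream of the genes are shown first, because the evening element, AAAATATCT, is the site through which CCA1 and LHY are known to act on TOC1. In the 300 bases before the annotated gene start, read from the RefSeq TAIR10.1 genome on both strands, 5 of the 9 genes examined held it (TOC1, LUX, BOA, PRR5 and FKF1), against 765 of all 27443 protein-coding genes (2.79%). A form 1 base shorter, AAATATCT, which every evening element contains, was searched after the sequences had been read. It was in the same 5 genes and in no other of the 9, against 1548 of all (5.64%). Each sequence runs 5′ to 3′ on the strand of its gene up to the base before the gene start, and capitals mark the evening element or the shorter form, as such or as the reverse complement.
TOC1, chr5:24674663-24674962, plus strand: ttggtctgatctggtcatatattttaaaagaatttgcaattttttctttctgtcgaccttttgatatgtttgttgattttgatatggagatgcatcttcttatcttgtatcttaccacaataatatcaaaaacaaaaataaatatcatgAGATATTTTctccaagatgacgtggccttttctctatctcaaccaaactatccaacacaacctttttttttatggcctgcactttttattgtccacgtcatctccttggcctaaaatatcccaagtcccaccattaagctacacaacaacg
LUX, chr3:17182742-17183041, plus strand: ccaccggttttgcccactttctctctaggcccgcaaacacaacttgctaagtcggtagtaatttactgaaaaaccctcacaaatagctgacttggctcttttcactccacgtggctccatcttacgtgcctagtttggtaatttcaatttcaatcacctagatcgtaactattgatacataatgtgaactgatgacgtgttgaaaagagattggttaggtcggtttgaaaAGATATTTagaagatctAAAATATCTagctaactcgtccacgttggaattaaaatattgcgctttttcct
BOA, chr5:24003588-24003887, plus strand: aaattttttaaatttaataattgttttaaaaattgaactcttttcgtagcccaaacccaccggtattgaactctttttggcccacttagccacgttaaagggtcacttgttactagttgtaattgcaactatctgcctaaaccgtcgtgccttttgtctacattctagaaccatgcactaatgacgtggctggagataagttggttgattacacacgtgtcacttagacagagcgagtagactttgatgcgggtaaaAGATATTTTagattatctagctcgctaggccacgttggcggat
PRR5, chr5:8358547-8358846, minus strand: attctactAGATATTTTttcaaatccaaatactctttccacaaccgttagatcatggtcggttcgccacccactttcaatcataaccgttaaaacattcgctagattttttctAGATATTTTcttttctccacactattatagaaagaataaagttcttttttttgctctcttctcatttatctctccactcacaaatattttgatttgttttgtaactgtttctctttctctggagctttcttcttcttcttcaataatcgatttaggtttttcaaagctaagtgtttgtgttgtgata
FKF1, chr1:25508339-25508638, plus strand: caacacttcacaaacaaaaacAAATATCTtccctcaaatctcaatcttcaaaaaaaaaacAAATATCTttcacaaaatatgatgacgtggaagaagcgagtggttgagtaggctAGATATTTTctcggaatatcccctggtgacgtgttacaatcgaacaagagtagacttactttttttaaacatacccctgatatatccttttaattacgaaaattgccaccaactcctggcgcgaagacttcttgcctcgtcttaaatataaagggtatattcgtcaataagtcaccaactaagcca
CHE, chr5:2680101-2680400, plus strand: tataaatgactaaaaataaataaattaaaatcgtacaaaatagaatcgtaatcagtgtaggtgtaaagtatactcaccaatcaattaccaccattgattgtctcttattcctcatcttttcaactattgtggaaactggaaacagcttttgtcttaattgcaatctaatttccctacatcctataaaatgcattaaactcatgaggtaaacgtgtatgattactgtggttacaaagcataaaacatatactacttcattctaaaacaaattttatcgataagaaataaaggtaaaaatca

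PRR5 held 2 evening elements, at −292 to −284 and at −187 to −179 from the gene start. Those of LUX and BOA lay closer to the start, at −53 to −45 and at −43 to −35. TOC1 held 1 at −151 to −143 and FKF1 1 at −186 to −178, beside 2 copies of the shorter form. CHE is printed for comparison: neither form was found there, nor in the same window of GI, PRR3 and ELF3. Among other clock motifs, the G-box CACGTG was in LUX and BOA (7.09% of all genes), GATACG, a site bound by LUX, was in ELF3 (5.51%), and AAAAATCT, another CCA1 site, was in PRR5 (7.94%). These matches are letters in a window, not measured binding.

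**Figure D1:**
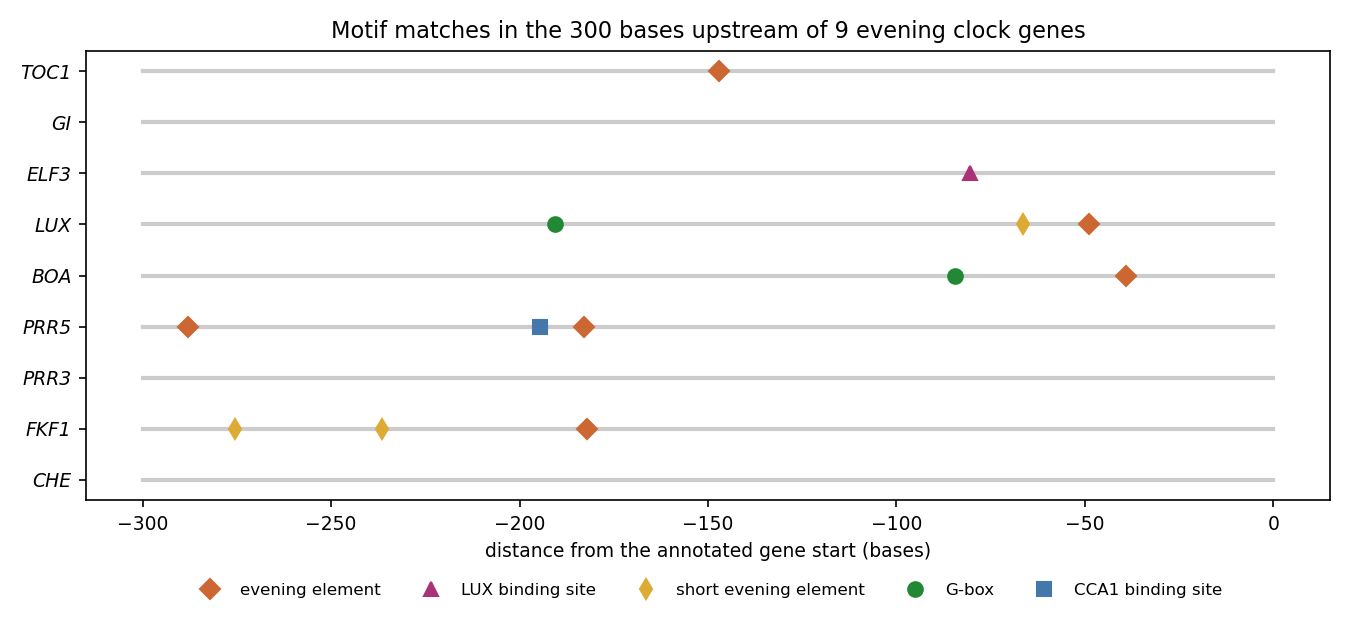
Positions of motif matches in the 300 bases upstream of each of 9 genes; the horizontal axis is the distance in bases from the annotated gene start and each marker is 1 match, with shorter forms inside an evening element left out. Evening elements stand at TOC1, LUX, BOA, PRR5 and FKF1, and GI, PRR3 and CHE have no match of any kind.

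Between the replicate pairs, 9 of the 10 genes were higher in replicates 3 and 4, and CHE was not called. The rise ran from 1.38-fold for GI to 7.52-fold for ELF4, 9.05-fold for FKF1 and 10.5-fold for PRR3 in mean FPKM. For each of the 9, all 8 libraries of replicates 3 and 4 lay above all 8 libraries of replicates 1 and 2. The test was limma on log2(FPKM + 1) with genotype in the fit, over 19239 genes at 1 FPKM or more in at least 4 libraries, and a gene was called at a Benjamini-Hochberg adjusted p under 0.05. This comparison called 44.4% of all genes tested, 27.9% higher and 16.6% lower, so a call by itself sets few genes apart. PRR3 and FKF1 passed the filter only through replicates 3 and 4, where they are high, and so had to differ. Of the other 8 genes, 7 were called higher and 7 had no overlap between the pairs, the latter beside 7.42% of all genes tested. Their median log2 difference was 1.25 and that of all genes tested 0.05, and 5 of the 8 were among the 95 genes (0.494%) with a log2 difference of 1 or more. Without any filter on low values, 9 of the 10 genes were called higher, and 22.2% of all 24330 genes. In bulk RNA, fewer cells that express a gene and less of its RNA per cell cannot be told apart.

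**Figure D2:**
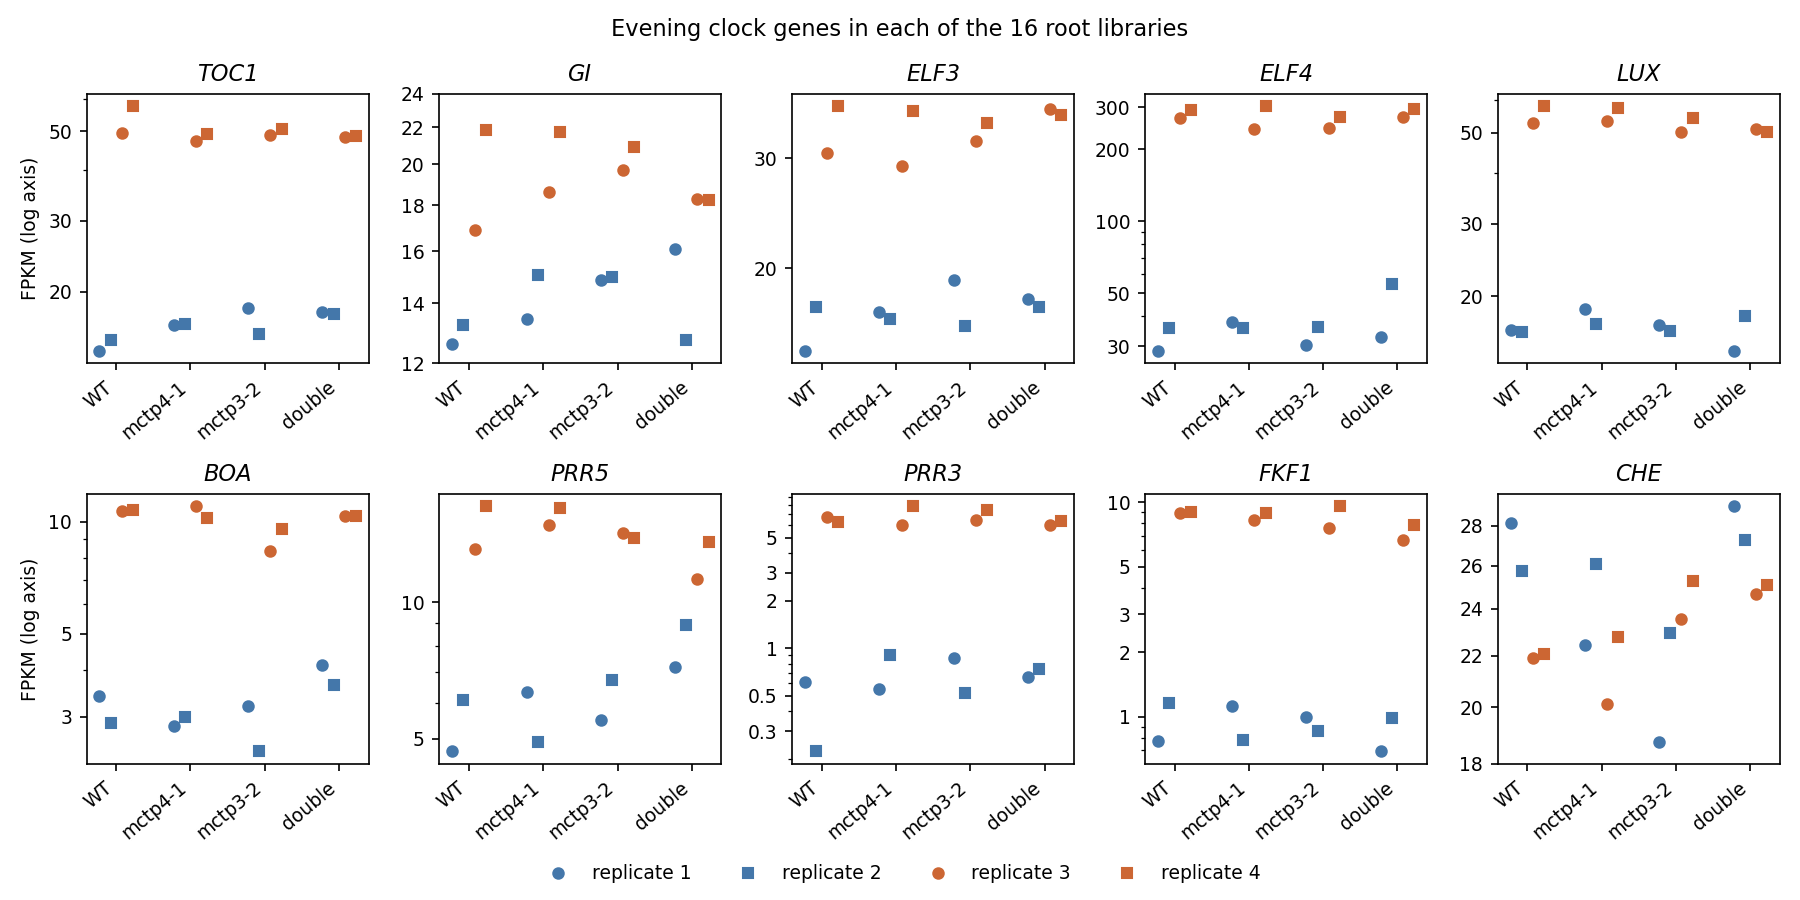
FPKM (log axis, its range set for each gene) of the 10 genes in each of the 16 libraries, by genotype; circles and squares are replicates 1 and 2 in blue and 3 and 4 in orange. In each genotype the orange points lie above the blue ones for every gene but CHE. The orange points of CHE lie below the blue ones in WT and double and above them in mctp3-2. In mctp4-1 its replicate 3 lies below both blue points and its replicate 4 between them.

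Among the genes of the evening complex, ELF4 (AT2G40080, chr2:16734294-16734953, minus strand, 1 exon), whose small protein steadies the complex, moved most. The lowest, median and highest of the 8 libraries were 28.6, 35.8 and 54.7 FPKM in replicates 1 and 2, and 243, 273 and 304 FPKM in replicates 3 and 4. Double replicate 2 was the library at 54.7 FPKM, and the other 7 of its pair were at 28.6 to 37.9 FPKM, so the pairs stayed far apart with it. Means were 36.5 ± 8.01 and 274 ± 21.8 FPKM (SD, n = 8), and the log2 difference of 2.90 ± 0.09 (SE; limma adjusted p = 5.21e-12) ranked 7 of 19239 genes by size. The ratio of the pair means was 8.72 in WT, 7.44 in mctp4-1, 7.79 in mctp3-2 and 6.49 in double.

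ELF3 (AT2G25930, chr2:11058944-11063324, plus strand), the scaffold that joins ELF4 to LUX and a sensor of temperature, rose 1.98-fold. It was at 14.7, 17.1 and 19.1 FPKM (lowest, median and highest) in replicates 1 and 2, and at 29.2, 34.7 and 36.4 FPKM in replicates 3 and 4. The pairs did not overlap, and the ratio was 1.88 to 2.09 in the 4 genotypes. Its log2 difference was 0.95 ± 0.06 (adjusted p = 6.00e-09), rank 413.

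LUX (AT3G46640, chr3:17183042-17186959, plus strand, PCL1 in the RefSeq annotation) gives the complex its DNA-binding domain. Its libraries were at 14.7, 16.8 and 18.7 FPKM in replicates 1 and 2, and at 50.2, 53.2 and 58.1 FPKM in replicates 3 and 4. The ratio lay within a narrow range over the genotypes, 3.10 to 3.37, and the log2 difference was 1.61 ± 0.05 (adjusted p = 9.72e-13), rank 73.

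BOA (AT5G59570, chr5:24003888-24007844, plus strand), the paralog of LUX, was expressed several-fold below it. It was at 2.42, 3.10 and 4.13 FPKM in replicates 1 and 2, and at 8.36, 10.4 and 11.0 FPKM in replicates 3 and 4. Its 3.19-fold difference in mean FPKM was close to the 3.17-fold of LUX, and on the log2(FPKM + 1) scale it was 1.42 ± 0.07 (adjusted p = 4.04e-10), rank 119. LUX and BOA each overlap a gene on the opposite strand, by 1507 and 1896 bases, and it is not given whether counting used the strand. Those neighbours, AT3G46650 and AT5G59580, were at no more than 1.54 and 0.889 FPKM in any library.

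The pseudo-response regulators are repressors that follow one another through the day, PRR9 first, then PRR7, PRR5, and TOC1 last. TOC1 (AT5G61380, chr5:24674963-24678550, plus strand), which represses CCA1 and LHY, was at 14.3 and 15.2 FPKM in WT replicates 1 and 2, and at 49.4 and 57.9 FPKM in replicates 3 and 4. In the mutants its 6 libraries of replicates 1 and 2 lay between 15.7 and 18.3 FPKM, and the 6 of replicates 3 and 4 between 47.3 and 50.7 FPKM. The pairs did not overlap in any genotype. The mean rose 3.03-fold, from 16.5 ± 1.38 to 50.0 ± 3.30 FPKM (SD, n = 8), a log2 difference of 1.55 ± 0.06 (adjusted p = 1.03e-11), rank 85.

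PRR5 (AT5G24470, chr5:8356204-8358546, minus strand) peaks before TOC1 and helps it enter the nucleus. Its libraries were at 4.68, 6.21 and 8.91 FPKM in replicates 1 and 2, and at 11.3, 14.1 and 16.3 FPKM in replicates 3 and 4. The ratio was 1.54 in double and 2.30 to 2.76 in the other genotypes. Over all libraries the log2 difference was 1.07 ± 0.11 (adjusted p = 1.55e-06), rank 305, and within double alone it was 0.57 and was not called (adjusted p = 0.0583).

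PRR3 (AT5G60100, chr5:24197971-24201415, minus strand, 7 annotated transcripts), known to shield TOC1 protein from degradation, was close to silent in replicates 1 and 2. There its libraries were at 0.223, 0.633 and 0.910 FPKM, and in replicates 3 and 4 at 6.01, 6.40 and 7.89 FPKM. No library of replicates 1 and 2 reached 1 FPKM, so PRR3 came into the test only through replicates 3 and 4. Its log2 difference in the fit without a filter was 2.24 (adjusted p = 4.01e-10), an understatement of the 10.5-fold ratio, since 1 was added to each FPKM before the logarithm.

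GI and FKF1 are partners in a blue-light complex that times flowering and degrades repressors of CO. FKF1 (AT1G68050, chr1:25508639-25510907, plus strand), its photoreceptor and ubiquitin ligase part, was at 0.690, 0.926 and 1.16 FPKM in replicates 1 and 2, and at 6.66, 8.60 and 9.58 FPKM in replicates 3 and 4. Only 2 of the 8 libraries of replicates 1 and 2 reached 1 FPKM, so the filter again depended on replicates 3 and 4. The ratio was alike in the 4 genotypes, 8.62 to 9.28, and the log2 difference in the fit without a filter was 2.28 (adjusted p = 7.35e-11).

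GI (AT1G22770, chr1:8061751-8067790, plus strand), a large protein that also stabilizes the clock protein ZTL, showed the smallest rise of the 9. WT libraries were at 12.6 and 13.2 FPKM in replicates 1 and 2, and at 16.9 and 21.8 FPKM in replicates 3 and 4. Over the genotypes the 8 libraries of replicates 1 and 2 were at 12.6 to 16.1 FPKM and those of replicates 3 and 4 at 16.9 to 21.8 FPKM, so the pairs came close but did not overlap. The log2 difference was 0.44 ± 0.06 (adjusted p = 6.77e-05), rank 2634, and within single genotypes, with 2 libraries against 2, it was called in WT only (0.54, adjusted p = 0.0206). Within mctp4-1, mctp3-2 and double it was 0.47, 0.42 and 0.33 (adjusted p = 0.0717, 0.115 and 0.147).

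CHE (AT5G08330, chr5:2680401-2681993, plus strand, TCP11 in the RefSeq annotation) is a TCP factor known to bind the CCA1 promoter and repress it together with TOC1. WT libraries were at 28.1 and 25.8 FPKM in replicates 1 and 2, and at 21.9 and 22.1 FPKM in replicates 3 and 4. In mctp3-2 the order was the other way, 18.7 and 22.9 against 23.6 and 25.3 FPKM, and over all genotypes the pairs overlapped. The log2 difference was −0.10 ± 0.07 (95% interval −0.25 to 0.05; adjusted p = 0.273). CHE was called lower in 1 fit, the one without mctp3-2 replicate 1 (−0.15, adjusted p = 0.0444).

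**Figure D3:**
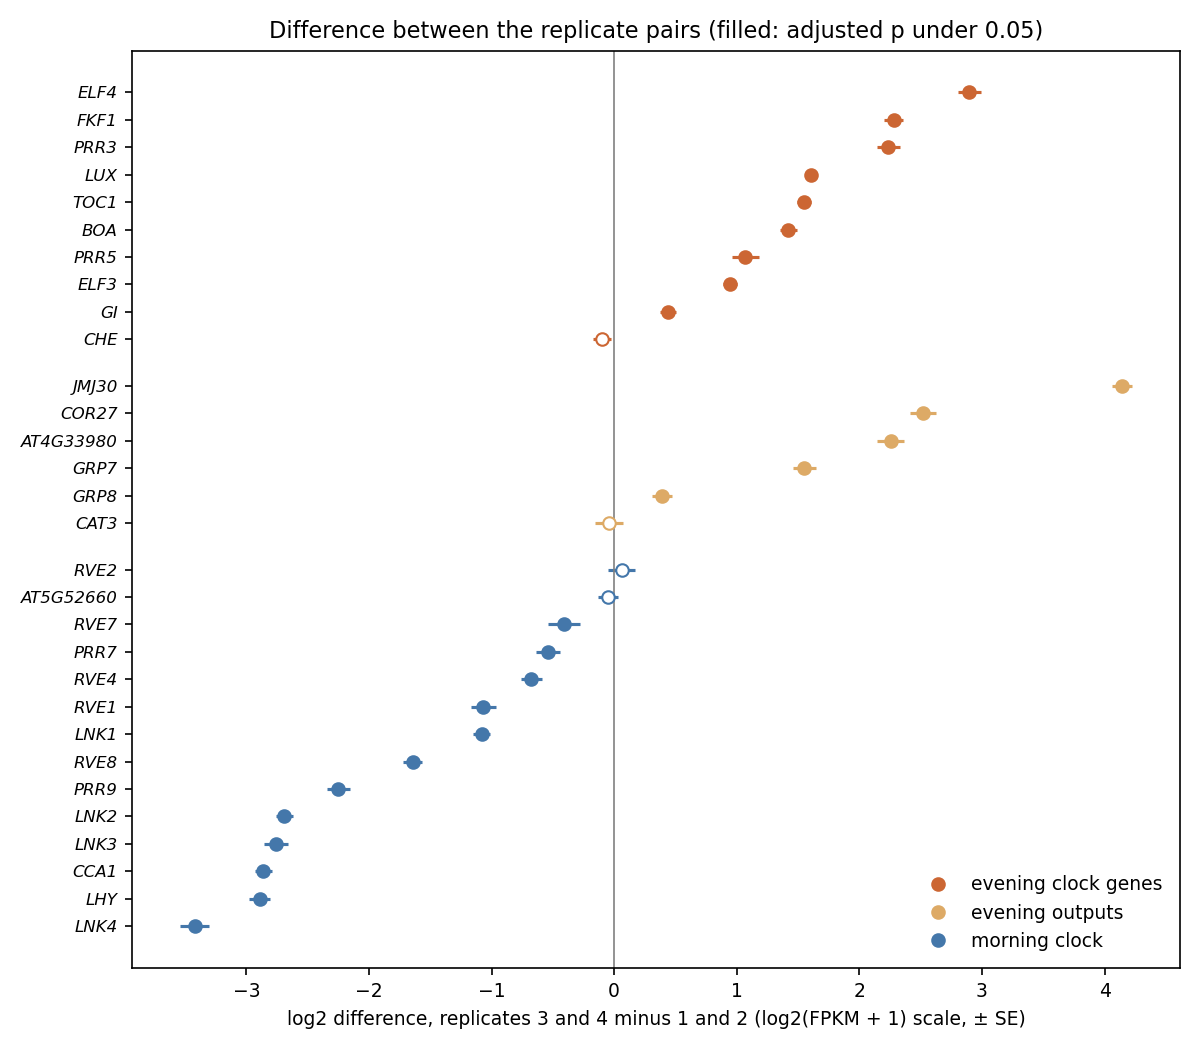
Difference between replicates 3 and 4 and replicates 1 and 2 (horizontal axis, log2(FPKM + 1) scale) for the 10 evening clock genes, 6 evening outputs and 14 morning clock genes; bars are 1 SE and open symbols were not called. ELF4, FKF1 and PRR3 are furthest to the right of the evening clock genes, and LNK4, LHY and CCA1 furthest to the left of the morning ones.

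Because libraries with the same number may share a source, the comparison was also made on 4 means, 1 for each replicate number over the genotypes. With 2 means against 2, TOC1, GI, ELF3, ELF4, LUX, BOA and PRR5 were still called higher, and CHE was not called. Their limma adjusted p ran from 0.00079 (LUX) to 0.0149 (GI), while 17.5% of all genes were called higher. PRR3 and FKF1 were called as well, but passed the filter only through replicates 3 and 4 and had to differ. Under median of ratios scaling, which moved the median of all genes from 0.05 to −0.00, the split of calls over all genes changed from 5364 higher and 3187 lower to 4092 higher and 4181 lower. TOC1, GI, ELF3, ELF4, LUX, BOA and PRR5 were called higher under that scaling and under quantile normalization. So were PRR3 and FKF1, which had to differ.

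**Figure D4:**
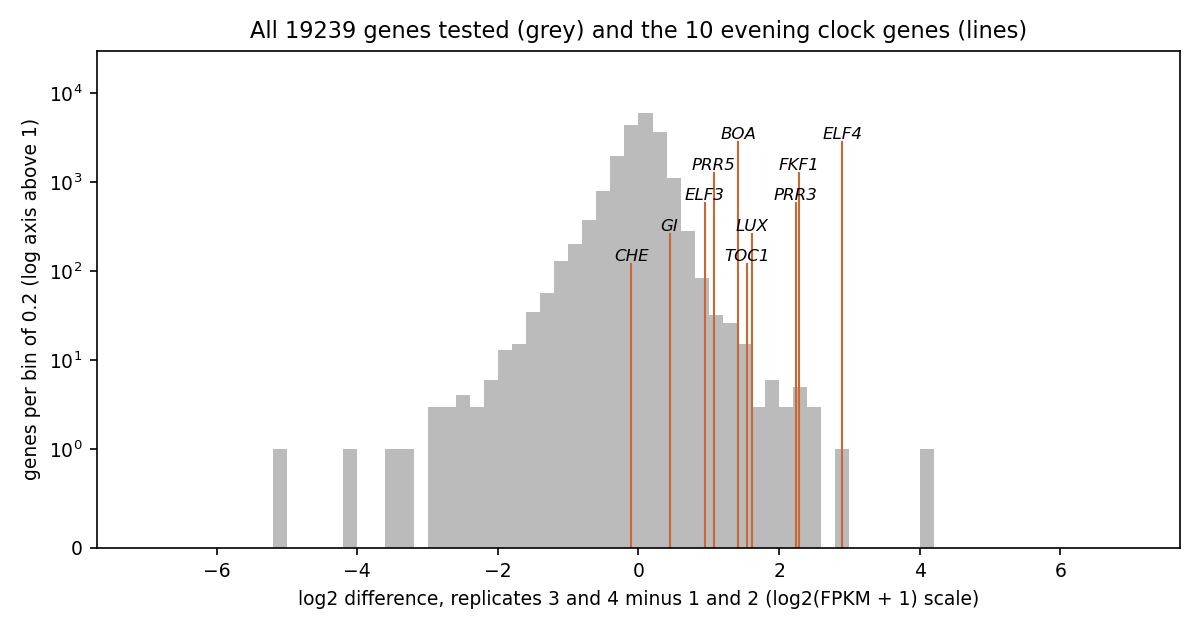
Number of genes (vertical axis, log scale above 1) by log2 difference between the replicate pairs (horizontal axis, bins of 0.2) over all 19239 genes tested, with lines at the 10 evening clock genes. CHE and GI lie within the bulk of the genes, and ELF4 at 2.90 lies in the sparse right tail.

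The order of the levels also changed between the pairs. In replicates 1 and 2, ELF4 (36.5 FPKM) and CHE (25.1 FPKM) came first, and ELF3, LUX, TOC1 and GI followed between 17.0 and 14.1 FPKM, each overlapping the next in its libraries. PRR5 (6.29 FPKM) and BOA (3.19 FPKM) stood apart below them, and FKF1 (0.923 FPKM) and PRR3 (0.635 FPKM) overlapped at the bottom. In replicates 3 and 4, ELF4 (274 FPKM) stood apart from LUX (53.5 FPKM) and TOC1 (50.0 FPKM), which overlapped. ELF3 (33.7 FPKM) came next, and CHE (23.2 FPKM) and GI (19.5 FPKM) overlapped after it. PRR5 (14.2 FPKM) stood above BOA (10.2 FPKM), and the libraries of BOA overlapped those of FKF1 (8.35 FPKM), which overlapped those of PRR3 (6.66 FPKM).

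The pair split took most of the variation of these genes. Of the sum of squares of log2(FPKM + 1), the split held 95.5 to 99.0% for TOC1, ELF3, ELF4, LUX, BOA, PRR3 and FKF1, 87.4% for PRR5 and 78.2% for GI, but 9.71% for CHE. Over all genes tested the median was 26.0%. Genotype held 0.097 to 4.35% for the 9 genes and 31.5% for CHE, beside a median of 11.3% over all genes. Both shares are of the same total, so where the split holds most of it, genotype can hold only little. The small genotype shares of the 9 genes therefore do not show less variation with genotype than in other genes. As a description, the 36 pairs among the 9 genes correlated at r = 0.863 to 0.996 over the 16 libraries, which share that split. With the mean of each pair of replicates taken out, r was −0.165 to 0.672 with a median of 0.239, and 31 of the 36 pairs were above 0.

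Genes of the opposite phase were lower in replicates 3 and 4. Of 14 morning clock genes, 12 fell and 0 rose, beside 16.6% of all genes called lower, with a median log2 difference of −1.36 (0.05 over all genes). CCA1, the dawn repressor of evening genes, was at 15.2 to 18.4 FPKM in replicates 1 and 2, and at 1.14 to 2.01 FPKM in replicates 3 and 4, a log2 difference of −2.86 ± 0.07 (adjusted p = 1.63e-13). LHY, its partner, went from a mean of 20.1 to 1.84 FPKM (−2.89 ± 0.09). LNK2, LNK3 and LNK4, of a family of coactivators that work with RVE8, fell by 2.69, 2.76 and 3.42 on the log2 scale, and PRR9 fell by 2.25. LNK3 and LNK4 passed the filter only through replicates 1 and 2, where they are high, and of the other 12 genes 10 fell. RVE2 (0.06) and AT5G52660 (−0.05) were not called. Of 7 morning outputs 5 fell (4 of the 6 that passed the filter in both pairs), among them CDF3, a repressor of CO, with −2.07, and 1 rose, CAT2, a catalase, with 0.43.

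Of 7 genes listed as evening outputs 6 were tested, and 5 rose and 0 fell, beside 27.9% of all genes called higher. JMJ30, a histone demethylase whose transcript peaks with TOC1, went from 0.800 to 30.6 FPKM, a log2 difference of 4.14. It reached 1 FPKM in 2 of 8 libraries of replicates 1 and 2 and so passed the filter only through replicates 3 and 4, and of the other 5 genes tested 4 rose. COR27 rose by 2.52 and AT4G33980 by 2.25. The RNA-binding proteins GRP7 and GRP8 rose by 1.55 and 0.39. CAT3 was at −0.04 and was not called.

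Relatives and partners of the 10 genes moved little. Of 20 listed, 18 were tested, 9 rose and 1 fell, beside 27.9% of all genes called higher and 16.6% lower, with a median log2 difference of 0.15. The largest rise was that of PHYB, a red-light receptor (0.38), followed by ELF4-L4, a paralog of ELF4 (0.33), and PRMT5 (0.29). ZTL, the paralog of FKF1 that degrades TOC1 and PRR5, rose by 0.21, and ELF4-L1 fell by 0.45. On the 4 means, 3 of the 18 were called higher, a share close to the 17.5% over all genes.

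Markers of green tissue, listed to follow shoot RNA, differed between the pairs as well. The summed FPKM of the 10 markers was 146 to 447 (median 228) in replicates 1 and 2, and 117 to 312 (median 157) in replicates 3 and 4. In WT it was 212 to 312 in replicates 3 and 4 against 174 to 254, which overlap. In mctp4-1 it was 144 to 159 against 221 to 285, which do not. In mctp3-2 it was 125 to 195 against 146 to 235, and in double 117 to 155 against 153 to 447, and both overlap. The library with 447 was double replicate 2, the highest of replicates 1 and 2 for ELF4 and PRR5. The library with 312 was WT replicate 4, the highest of replicates 3 and 4 for TOC1. Of the 10 markers 6 were tested and 4 were called lower, beside 16.6% of all genes, and on the 4 means 5 were, beside 11% of all genes. LHCB2.1, a chlorophyll-binding protein, went from 9.29 to 0.621 FPKM with no overlap between the pairs, and its ratio in WT was 0.162. It passed the filter only through replicates 1 and 2, and 3 of the other 5 markers tested were called lower. PSAF, PSBO1 and LHCA1 had ratios of 0.719, 0.842 and 0.882 in WT, while RBCS1A and CAB1 had 1.62 and 1.92 there. The part of green tissue in the differences of the evening genes was not tested. Of the 10 root markers 1, RHD6, a root hair factor, was called (0.28).

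Genotype left the evening genes within the spread between libraries. None of the 10 was called in double, mctp4-1 or mctp3-2 against WT, and 0 had an unadjusted p under 0.05. All 3 comparisons share the WT libraries. Over all genes the calls were few: 0.156% of genes (30) in double, 0.026% (5) in mctp4-1 and 0.0312% (6) in mctp3-2, with 735, 242 and 355 genes at an unadjusted p under 0.05. Because replicates 1 and 2 are averaged with 3 and 4 in this fit, its SE reached 1.08 for ELF4, whose 95% interval in double ran from −2.11 to 2.52.

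With the replicate number as a block, the split between the pairs is taken out and SE fell to 0.07 to 0.15. The block raised the calls in double to 0.541% of all genes (104). In mctp4-1 it called 5 and in mctp3-2 11 of 19239 genes. Again none of the 10 evening genes was called in any mutant, beside these few calls over all genes. In double against WT, ELF4 had the smallest p, with 0.20 ± 0.11 (95% interval −0.02 to 0.43; adjusted p = 0.621). TOC1 differed by 0.06 (−0.12 to 0.24), GI by 0.04 (−0.15 to 0.22), ELF3 by 0.11 (−0.06 to 0.28) and LUX by −0.07 (−0.22 to 0.07). FKF1 lay below 0, as LUX did, with −0.19 (−0.43 to 0.06), and PRR5 had the widest interval, 0.14 (−0.18 to 0.46). For the other 3 genes, BOA, PRR3 and CHE, the differences were 0.10, 0.11 and 0.12.

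In mctp4-1 the differences of the 10 genes ran from −0.09 for CHE to 0.18 for PRR3, with 95% intervals between −0.31 and 0.47. In mctp3-2 they ran from −0.18 for BOA to 0.17 for PRR3, with intervals between −0.40 and 0.45. BOA had the smallest p there: its libraries labelled mctp3-2 were at 3.20, 2.42, 8.36 and 9.59 FPKM in replicates 1 to 4 and those of WT at 3.41, 2.89, 10.7 and 10.8 FPKM. Each mctp3-2 library was below the WT library of the same number, and the difference was not called (adjusted p = 0.720). These intervals leave room for differences of about 0.4 on the log2 scale, and a p that misses the threshold does not show equal levels.

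**Figure D5:**
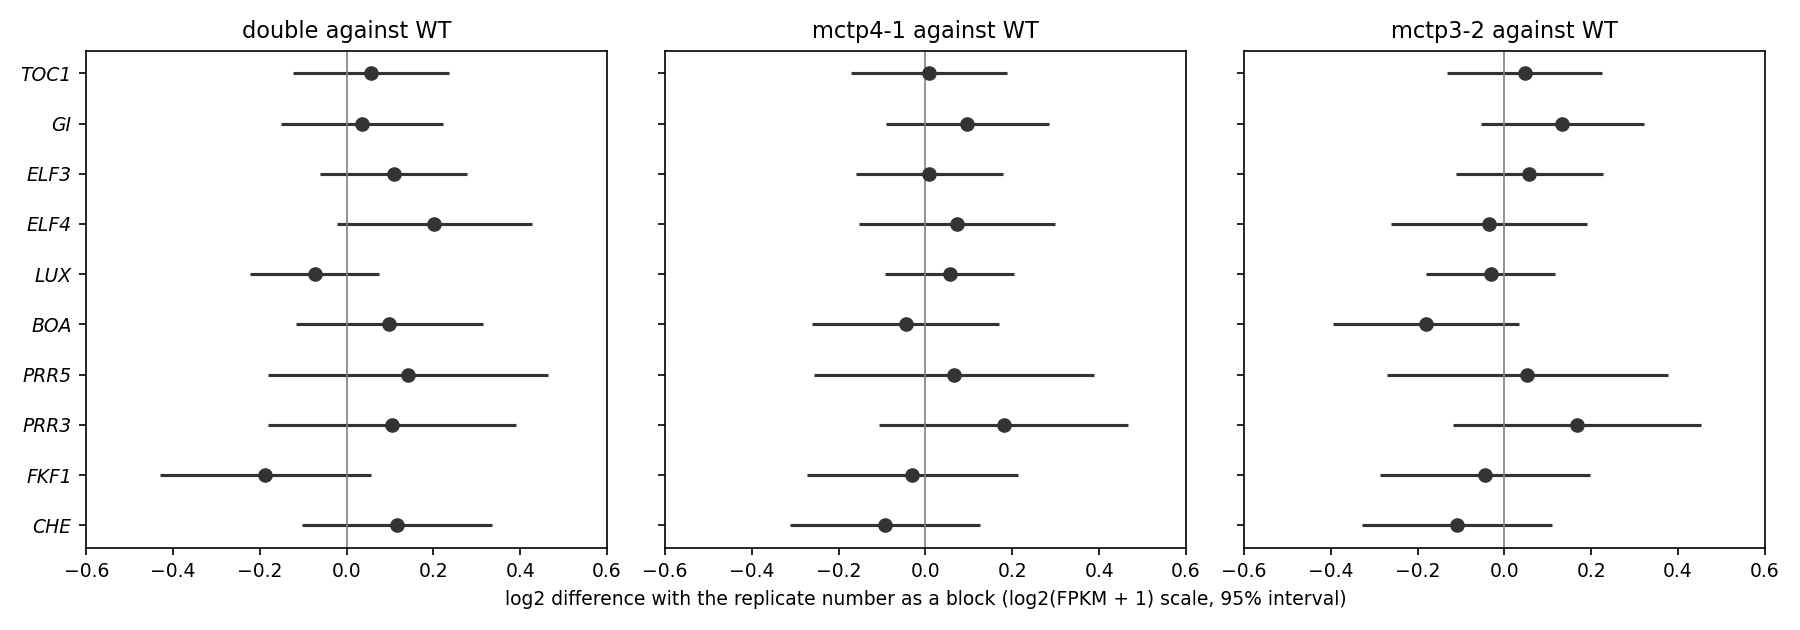
Difference of each mutant from WT (horizontal axis, log2(FPKM + 1) scale) for the 10 genes with the replicate number as a block; points are estimates and bars 95% intervals. Every interval spans 0, and PRR5 and PRR3 have the widest ones.

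Whether the difference between the replicate pairs depended on genotype was tested by an F test of the interaction, which called 0.0052% of all genes (1), with 603 at an unadjusted p under 0.05. None of the 10 evening genes was called (lowest adjusted p = 1.00). PRR5 had the smallest unadjusted p (0.0271): double was at 7.20, 8.91, 11.3 and 13.6 FPKM in replicates 1 to 4, and WT at 4.68, 6.09, 13.1 and 16.3 FPKM. In double PRR5 was thus above WT in replicates 1 and 2 and below it in replicates 3 and 4, and its log2 difference between the pairs differed from that of WT by −0.73. For CHE limma gave an unadjusted p = 0.0425, adjusted p = 1.00, and its log2 difference in mctp3-2 was above that of WT by 0.51. For TOC1 limma gave an unadjusted p = 0.0800, adjusted p = 1.00. Its log2 differences lay −0.31, −0.29 and −0.39 from that of WT in mctp4-1, mctp3-2 and double, and its WT replicate 4 was the library at 57.9 FPKM.

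Genes whose pattern over the 16 libraries was most like the mean of the 10 standardised genes were AT2G23910 (r = 0.985), ABF1 (0.983), JMJ30 (0.982), TAG1 (0.982), AT1G56300 (0.982), AT3G58570 (0.981), WLIM1 (0.980) and BBX8 (0.980). The lowest were AT5G62350 (−0.988), PELPK2 (−0.987), cPT5 (−0.986) and LHY (−0.985). All of them share the split between the pairs, and 421 of the 19229 genes searched reached r = 0.9. JMJ30 was the nearest gene to TOC1 (0.994), LUX (0.997), BOA (0.978), PRR3 (0.991) and FKF1 (0.994), and stood behind AT1G56300 (0.993) for ELF4 (0.992). ELF3 was nearest to AT2G23910 (0.981), PRR5 to SNRK2.9 (0.980) and GI to AMY3 (0.973). CHE had no close match, its highest being AT5G41470 (0.781).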

How the data were processed

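Poly(A) RNA of 16 root libraries was sequenced from stranded libraries, per the labels' protocols. The authors deposited FPKM per gene; HISAT2, Cufflinks and TAIR10 are named in the submitters' processing notes, and the sources used here give no versions or parameters and do not say whether counting used the strand. Whole reads could not be recovered (30.3 to 49.0% of genes below 0.6 FPKM fell on whole-fragment steps, tolerance 0.05 on the log2 scale), so count tests were not run and depth is unknown. Genes at 1 FPKM or more in at least 4 libraries (19239) were fitted as log2(FPKM + 1) with limma 3.58.1 in R 4.3.3, with trend and robust moderation, 2-sided, Benjamini-Hochberg adjusted over all genes tested. The replicate pairs were compared with genotype in the fit, the mutants as 1 mean per genotype, and the interaction over 8 means. In simulated data on 19239 genes, limma called 50 of 50 genes with a log2 difference of 1 between the replicate pairs and 47 of 50 between double and WT. At −1 it called 46 of 50 between the replicate pairs and 42 of 50 between double and WT. At 0.5 it called 40 of 50 between the replicate pairs and 30 of 50 between double and WT. The simulated spread was that within genotype and replicate pair, so the split between the pairs was absent. These counts therefore do not tell what the fit of 1 mean per genotype could call in the evening genes. The interaction was not simulated. No 2 libraries were identical (0 pairs).

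The numbers come from the labels. After removal of genotype means, 24 same-number pairs of libraries correlated at 0.203 to 0.556, above the limit of 0.1, and were taken as paired. The 24 pairs of other numbers within a replicate pair correlated at 0.185 to 0.524. Both share the split between the replicate pairs, so these values could not show pairing by number. With the mean of each genotype and replicate pair removed, r was −0.248 to 0.339 for the same number. For other numbers within a replicate pair it was −0.339 to 0.248. The members and lists were chosen with earlier results of these data known. All members were named, and of each other list up to 6 called genes, with CCA1 and LHY, and some genes that were not called. The named genes of these lists are thus examples. Like patterns were ranked by Pearson r over all genes tested. Alternatives were the pseudocount, the filter, scaling, moderation, the replicate block, 4 means, fits within genotypes or pairs, and leaving out libraries. Sequences and positions are from RefSeq TAIR10.1, searched with exact matches on both strands. The sequence upstream of ELF4 is not reported here.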

Additional observations from a re-analysis of the deposited data

How the results depend on the processing

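The 9 evening genes called higher in replicates 3 and 4 kept their direction in every alternative, and 323 values over the 10 genes kept their side of the threshold. The 5 exceptions were GI within mctp4-1, mctp3-2 and double, PRR5 within double, and CHE without mctp3-2 replicate 1. With FPKM of at least 1 in all 16 libraries, PRR3 and FKF1 left the test and 7 of 8 genes were called higher. Under that filter 5174 of all 17394 genes were called higher. The log2 difference ran from 2.72 to 3.09 for ELF4, 1.41 to 1.79 for TOC1 and 0.33 to 0.54 for GI. For the mutants no evening gene was called in any alternative.

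The number of all genes called between the replicate pairs was 8551, and 5488 on 4 means, 3259 within WT, 915 within mctp4-1, 841 within mctp3-2 and 1504 within double, where fewer libraries entered; leaving out a library or a number gave 5643 (without replicate 4) to 8454. With the replicate number as a random block it was 8574, at a correlation of −0.00. The same 9 evening genes were called, among them PRR3 and FKF1, which passed the filter only through replicates 3 and 4. In double against WT the count was 30, with the replicate number as a fixed block 104, and without 1 library 18 (without double replicate 3) to 28. In mctp3-2 it was 6, with the stricter filter 3, with the replicate block 11 and without 1 library 6 to 7. In mctp4-1 it was 5, within replicates 1 and 2 it was 3 and within replicates 3 and 4 it was 2. The interaction called 1 gene, 3 without a filter, 0 with the stricter one and 0 to 3 without 1 library. The cause of these changes was not tested.

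Depth is unknown, so the counting error of low values, such as those of PRR3 and FKF1 in replicates 1 and 2, could not be estimated. Scaling over all genes cannot show a change shared by all of them. The labels give neither the hour of harvest nor what a replicate number stands for.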
